A study of Saccharomyces cerevisiae with 14 samples.

Results

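Nucleosome maps of a pair of yeast strains were compared directly, without wild type as the denominator: the strain labelled dAT and the strain labelled dSnAC. Each carries a mutation of SNF2, and the names are read here as lacking, in turn, the AT hooks and the SnAC domain of the encoded protein. The comparison rests on 4 of the 14 samples of the series, dAT replicates 2 and 3 and dSnAC replicates 1 and 3, which the authors merged into 1 list of nucleosome calls per strain. It covers 5889 of 6002 nuclear protein-coding genes, leaving out 113 whose start codon lies in the outer 10000 bp of a chromosome.

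All strains were of the BY4741 background, a laboratory strain of Saccharomyces cerevisiae, and were grown in rich medium (YPD) at 30 °C. Cells were fixed with formaldehyde and digested with micrococcal nuclease (MNase), which cuts linker DNA and spares DNA wrapped around nucleosomes, and mononucleosomal DNA was sequenced from libraries made without PCR. The other strains of the series were wild type (WT), a mutant called catalytically dead, in which K798A changes the ATPase (CD), and a SNF2 deletion (dSnf2), and their lists are given as values beside the comparison. The labels name no residues for dAT and dSnAC and say nothing of the level of either protein.

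Snf2 is the ATPase of SWI/SNF, a complex that slides and evicts nucleosomes and opens promoters of many inducible genes. The SnAC domain follows the ATPase domain in the protein, binds histones and helps to couple ATP hydrolysis to nucleosome movement. AT hooks are short motifs that bind the minor groove of AT-rich DNA, and in Snf2 they lie between the SnAC domain and the bromodomain near the C terminus.

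Each nucleosome call has a dyad, which is its centre, the SD of dyad positions, which is larger for loosely placed nucleosomes, and an occupancy. Occupancies were divided by the median call of their own list, so that 1 is the median call. The dAT list held 63289 nuclear calls with 39310624 reads and the dSnAC list 63263 calls with 31879115 reads. The median call had 637 reads in dAT and 514 in dSnAC, with an exact 95% Poisson interval whose half-width was 7.85% and 8.75% of the value. With 1 pooled list per strain there was no replicate check and no test, and intervals cover counting error only. A difference between the lists cannot be told apart from a difference in MNase digestion or library preparation between the cultures.

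The calls along the mutated gene check the labels. SNF2 (YOR290C) lies on the minus strand of chromosome XV, from 855147 to 860258 in sacCer3. The coding region had a mean of 0.796 in dAT and 0.731 in dSnAC, near the 0.663 of WT and the 0.732 of CD, and of 0.00559 in dSnf2. Within it, dAT and dSnAC lacked different stretches, and the same-place call that differed most in the genome was there. WT had calls of 0.878, 0.854, 0.936 and 0.747 at codons 1298, 1353, 1407 and 1462. In dSnAC the neighbours at codons 1250 and 1475 had 0.852 and 0.477, and between them stood only a call of 0.208 with 107 reads at codon 1300 and a call of 2 reads at codon 1381. In dAT the calls at codons 1297, 1353 and 1417 were present, at 1.02, 0.964 and 0.771, and the next, at codon 1466, held 1 read. The missing stretch thus lay nearer to the ATPase-coding part in dSnAC (codons 1275 to 1450 without a call of 0.25 or more) than in dAT (codons 1441 to 1519). At codon 1297 in dAT and 1300 in dSnAC the log2 ratio of dAT to dSnAC was 1.87, with a counting half-width of 0.21. The reads there show which DNA the strains lack, not how nucleosomes are placed on it.

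**Figure D1:**
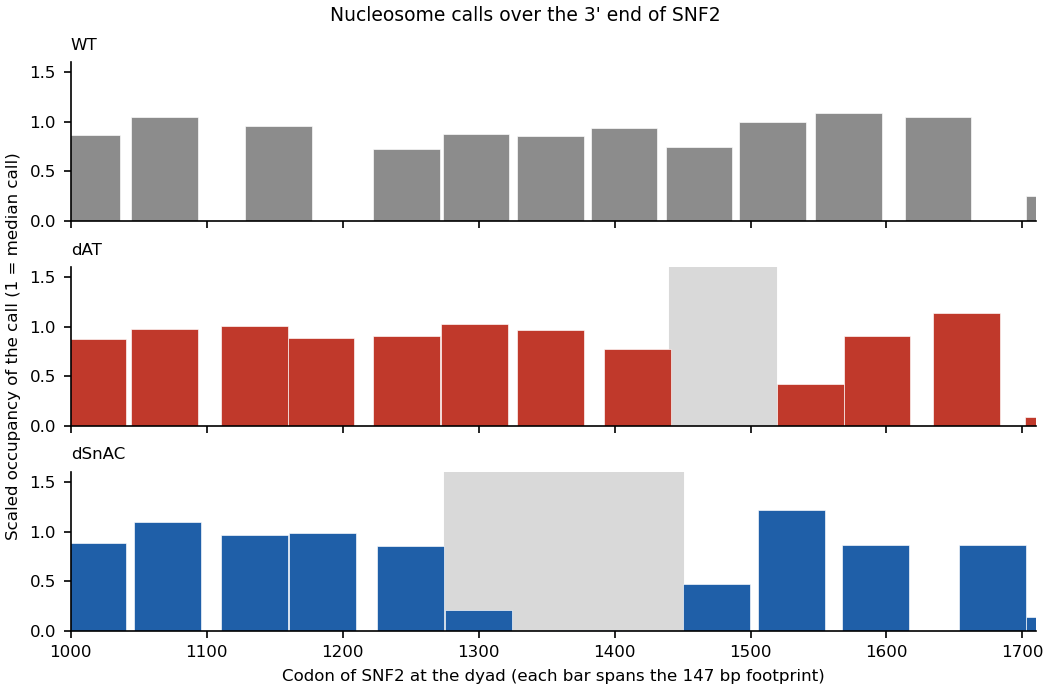
Nucleosome calls over the 3′ end of SNF2 in WT, dAT and dSnAC. The x axis gives the codon at the dyad and the y axis the scaled occupancy of each call, drawn as wide as its footprint. Grey bands mark the widest stretch without a call of 0.25 or more, at codons 1441 to 1519 in dAT and 1275 to 1450 in dSnAC.

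Elsewhere the lists placed nucleosomes at nearly the same positions. Of the calls of each list, 97.6% had a partner in the other (mutual nearest dyads within 73 bp, 61741 pairs), the median displacement was 2 bp, and 90.0% of pairs lay within 10 bp. The median dyad SD differed by 0.11 bp, with dAT higher. The 1548 dAT calls and 1522 dSnAC calls without a partner were mostly not weak: 884 and 921 of them had an occupancy of at least 0.75. No neighbouring dyads were closer than 148 bp in either list, and 99.2% of neighbours in each list were closer than 296 bp, so that few intervals had room for another call at that distance. A call without a partner can thus stand in an interval that the other list left empty and that had too little room for another call. Whether a call without a partner was a nucleosome gained or lost, or a choice of the calling program, was not tested. Such calls were spread over regions upstream of genes (2.22% of dAT calls and 1.89% of dSnAC calls there) and downstream (2.48% and 2.97%) as well as coding sequence. The highest in dAT lay in REA1, which encodes an ATPase of 60S subunit maturation (1.45, 921 reads), SFB3, of vesicle coats, nearest to the start codon of PAL2 (1.36), FAB1, a lipid kinase (1.33), and PRB1, vacuolar protease B (1.30). The highest in dSnAC lay in CMR2, nearest to the start codon of ECM3 (1.49, 767 reads), DUR12, the urea amidolyase (1.40), VHS3, a phosphatase regulator (1.33), and ADE2, of purine synthesis (1.31). The nearest dyad of the other list was 74 to 137 bp away from these 8 calls.

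Relative to the median call, promoters held slightly less nucleosome signal in dAT than in dSnAC, and did so over most of the genome. Promoter occupancy is the average over the bases at -300 to -1 bp from the start codon. The window was not cut at neighbouring genes, so for some genes it covers coding sequence of another gene. Its median was 0.602 in dAT and 0.638 in dSnAC, against 0.766 in WT, 0.683 in CD and 0.723 in dSnf2. The log2 ratio of dAT to dSnAC, with a pseudocount of 0.1 that understates differences at low occupancy, had a median of -0.066. The 95% order-statistic interval of this median over genes was -0.069 to -0.063, which describes neither the spread of genes nor that of replicates. The interquartile range of the ratio over genes was -0.127 to -0.0087. The ratio was below 0 in 78.3% of genes, and its median was below 0 on 16 of 16 chromosomes, from -0.075 to -0.033. The SD over genes was 0.10, larger than the median itself.

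**Figure D2:**
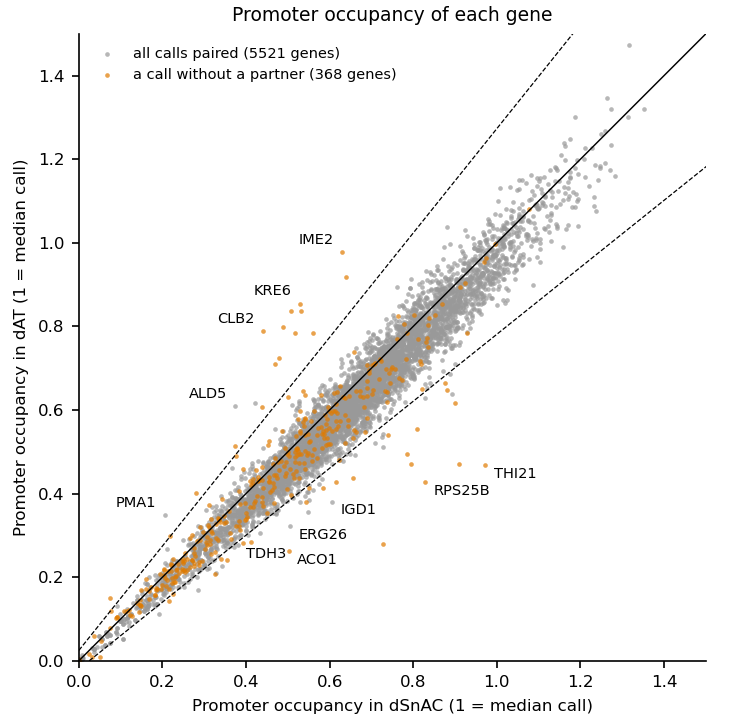
Promoter occupancy of each of 5889 genes in dAT (y axis) against dSnAC (x axis), where 1 is the median call. Orange points are the 368 genes whose promoter is reached by a call without a partner in the other list. Dashed lines mark a log2 ratio of 0.32 in either direction, and 65 genes lie at or past the lower line and 19 at or past the upper.

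Single promoters past a log2 ratio of 0.32 were few. In dAT, 65 were lower (1.1% of genes) and 19 higher (0.323%), and relative to the median gene the numbers were 32 and 24. These are counts of annotated genes, not of separate promoters. Among the lower ones YDR210W-A and YDR210W-B share a start codon, and the windows of YCR024C-B and PMP1 overlap. The genes next to the threshold had -0.320423 inside and -0.319725 outside on the lower side, and 0.326325 and 0.313572 on the higher side. A call without a partner reached 25 of the 65 lower promoters and 16 of the 19 higher ones, but only 6.25% of all promoters. Among genes with all calls paired, 40 promoters were lower and 3 higher, and these 3 were ALD5, PMA1 and MIG3.

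The lowest promoters with all calls paired belonged to genes of several functions. IGD1, which encodes an inhibitor of the glycogen debranching enzyme (chromosome VI), had 0.381 in dAT and 0.606 in dSnAC, a log2 ratio of -0.56. ERG26, a sterol dehydrogenase of ergosterol synthesis (chromosome VII, 495453 to 496502), had 0.322 and 0.505 (-0.52), with 0.715 in WT. In ERG26 the call next to the start codon lay at -8 bp in dAT (480 reads) and at -54 bp in dSnAC (441 reads), so that less of its footprint fell in the promoter in dAT, and the call at -297 and -299 bp was at 0.46 and 0.57. UBA3, part of the enzyme that activates the ubiquitin-like protein Rub1, had 0.210 and 0.328 (-0.47). PNC1, the nicotinamidase that clears nicotinamide, had 0.228 and 0.342 (-0.43). At PNC1 the calls inside the gene matched, with 1.16 and 1.21 at 57 and 54 bp, and the difference sat in the promoter call near -133 bp, with 209 reads (0.33) in dAT and 274 reads (0.53) in dSnAC. Of these 4 promoters PNC1 is thus one where the same nucleosome held less signal, and ERG26 one where the nucleosome lay elsewhere.

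Other lower promoters with all calls paired, named after their values were seen, included SRB4 of the Mediator complex (-0.39), GCN2, the kinase that senses amino acid starvation (-0.38), HRD3 of endoplasmic-reticulum protein degradation (-0.39), MPD2, a protein disulfide isomerase (-0.43), PCH2 of the meiotic checkpoint (-0.38), and the translation factor genes TIF1 (-0.35) and DED1 (-0.32). In WT, 35 of the 40 had a higher occupancy than in both deletions (87.5%), which is also the share among all genes with paired calls (87.3%). The median over the 40 was lowest in dAT (0.381), followed by dSnAC (0.534), CD (0.567), dSnf2 (0.588) and WT (0.639).

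In the other 5 of the 40, dSnAC stood above WT, and in 3 of these (TDH3, YPL062W and YKL096C-B) both deletions did. The window of YKL096C-B lies mostly in the coding sequence of its neighbour CWP2, whose gene body is given below. TDH3 encodes the main glyceraldehyde-3-phosphate dehydrogenase (chromosome VII), and its promoter was at 0.260 in WT and 0.277 in dAT but at 0.381 in dSnAC, with 0.544 in CD. CDC19, pyruvate kinase (chromosome I), was at 0.258 in WT, between 0.222 in dAT and 0.310 in dSnAC, and had 0.375 in CD and 0.404 in dSnf2. The log2 ratio of dAT to dSnAC was -0.35 in both genes. Among all 65 lower promoters WT was above both deletions in 50, between them in 9 and below both in 6.

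Among named genes, the promoters with the largest ratios were those where a call was placed in 1 list and not in the other. THI21, a kinase of thiamine synthesis (chromosome XVI), had 0.468 in dAT and 0.972 in dSnAC (-0.92). The dSnAC list placed a call of 1.07 with 552 reads at -90 bp and none between 58 and 352 bp, whereas dAT had none between -241 and 53 bp and a call of 1.11 with 707 reads at 201 bp. WT had calls at both -93 and 203 bp. The dyads around the empty promoter stretch in dAT were 294 bp apart, under the 296 bp that a further call would need. RPS25B, a small-subunit ribosomal protein gene, had 0.427 and 0.828 (-0.82), through a dSnAC call of 435 reads at -114 bp without a partner. In CD its promoter was at 0.429 and in dSnf2 at 0.817, the same pair of levels in strains with other mutations. THI21 and RPS25B have near-identical relatives in the genome, so their reads may be divided by the alignment, which was not tested. ACO1, the aconitase of the citric acid cycle, had 0.262 and 0.502 (-0.73), POG1, a promoter of recovery from pheromone arrest, 0.494 and 0.786 (-0.58), PAU7, of the seripauperin family, 0.618 and 0.900 (-0.48), and PMP1, a small subunit of the plasma-membrane proton pump, 0.208 and 0.326 (-0.47). PAU7 too belongs to a family of near-identical genes.

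The higher promoters were of the same kind. CLB2, the main mitotic cyclin (chromosome XVI), had 0.788 in dAT and 0.440 in dSnAC (0.72), with 0.920 in WT. The call next to its start codon lay at -31 bp in dAT (605 reads) and at 79 bp in dSnAC (523 reads), which are too far apart to be partners. KRE6, of cell-wall beta-1,6-glucan synthesis, had 0.854 and 0.530 (0.60), through a dAT call of 504 reads at -93 bp. IME2, a kinase that starts meiosis, had 0.977 and 0.630 (0.56), through a dAT call of 561 reads at -107 bp. In dSnAC the dyads around these places were 295 bp apart at KRE6 and 293 bp at IME2, again without room for a further call. CMR3 had 0.797 and 0.488 (0.61), SPG4, a stationary-phase gene, 0.784 and 0.517 (0.52), the hexose transporter gene HXT13 0.724 and 0.479 (0.51) and the glucan-modifying GAS1 0.401 and 0.280 (0.40). HXT13 has near-identical relatives. ALD5, a mitochondrial aldehyde dehydrogenase, had 0.610 and 0.375 (0.58), PMA1, the plasma-membrane proton pump, 0.348 and 0.206 (0.55), and MIG3, a zinc-finger repressor, 0.616 and 0.421 (0.46). All calls reaching these last 3 promoters had partners, yet the arrangement differed: at PMA1 dAT had calls at -164, -6 and 142 bp where dSnAC had 2, at -140 and 65 bp. Calls taken as partners lay at -6 bp in dAT and 64 bp in dSnAC at ALD5, and at -131 and -198 bp at MIG3. For the 20 promoters named by size, 10 in each direction among genes with a standard name and a mean of at least 0.25, counting error gave a half-width of 0.10 to 0.16, below the ratio in each. That half-width takes the calls as placed. It leaves out any error in placing them, and calls without a partner reached most of the 20. Larger ratios stood at reading frames without a standard name, such as YHR022C (0.279 in dAT and 0.727 in dSnAC, -1.13) and YMR075C-A (0.837 and 0.508, 0.63), and calls without a partner reached both.

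**Figure D3:**
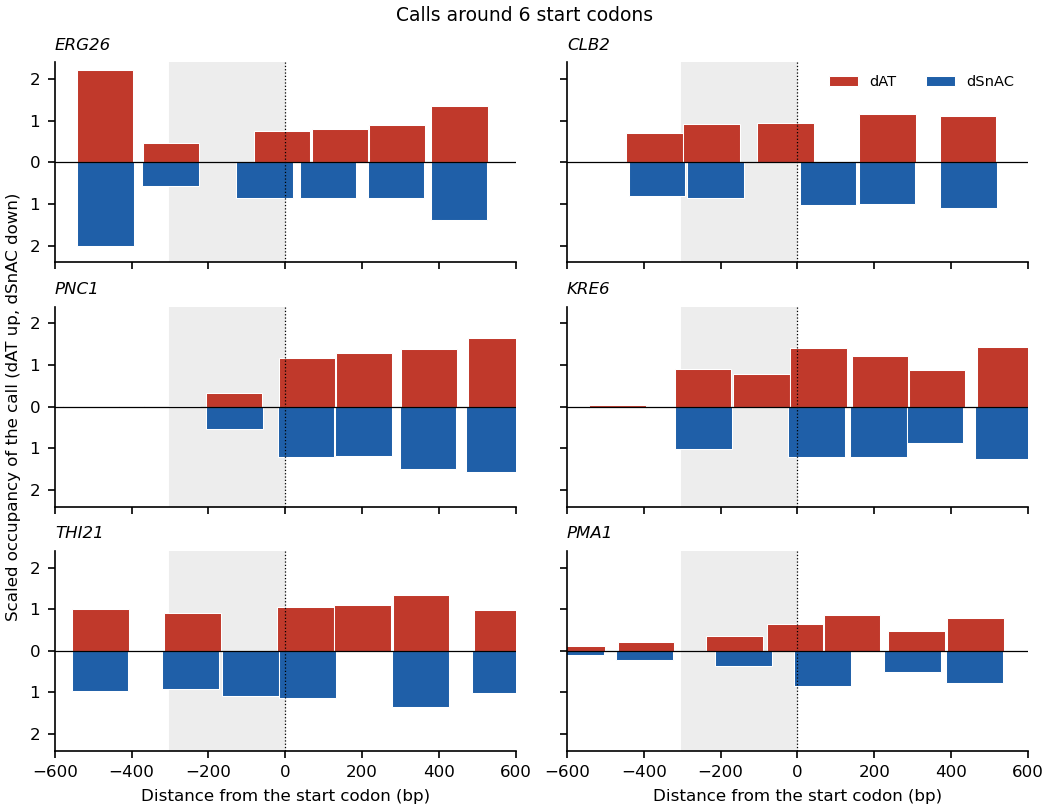
Calls within 600 bp of 6 start codons, as bars as wide as a footprint at their distance from the start codon (x axis), with scaled occupancy in dAT drawn up and in dSnAC drawn down (y axis). The grey band is the promoter window. ERG26 and PNC1 have all calls paired, THI21 has a call at -90 bp in dSnAC alone, CLB2 and KRE6 have promoter calls in dAT alone, and PMA1 has 3 calls from -164 to 142 bp in dAT where dSnAC has 2.

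Mean profiles showed where the small general difference lay. Around the start codon dAT was below dSnAC most at -240 bp (0.646 against 0.687), and in the trough of the profile at -130 bp it was at 0.352 against 0.378. Inside genes the order turned on the scale of the median call, with a largest excess of dAT at 370 bp (0.908 against 0.893). The deficit began inside genes, at -110 bp from the stop codon, and was -0.0360 at -20 bp. The largest deficit lay at 60 bp past the stop codon (0.491 against 0.541), and the trough at 110 bp was at 0.447 in dAT, 0.493 in dSnAC and 0.646 in WT. In long genes whose +1 calls were partners (1500 bp or more, 1837 genes) the median log2 ratio was -0.08 at the nucleosome upstream of the promoter gap (-1), -0.06 at the first nucleosome of the gene (+1), 0.00 at +2 and 0.03 at +6. Displacements of 20 bp or more were seen in 1.15% of pairs at +3 and in 7.32% at +8.

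**Figure D4:**
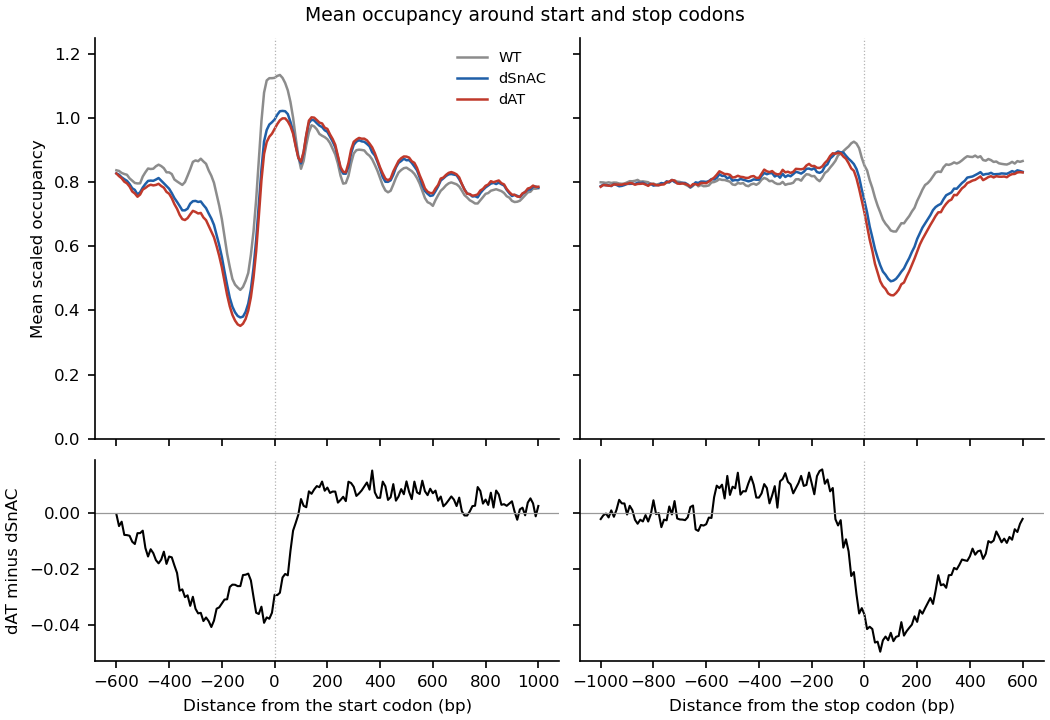
Mean scaled occupancy of 5889 genes around the start codon (left) and the stop codon (right) in WT, dSnAC and dAT, with dAT minus dSnAC in the lower panels. Distances on the x axis are in bp, positive along the gene. The difference is below 0 from -600 bp to the +1 nucleosome, and again from -110 bp before the stop codon onwards, with its lowest point of -0.0498 at 60 bp past the stop. In between it is above 0 in parts, by at most 0.0158, and mixed in sign more than 570 bp before the stop.

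Single nucleosomes gave the same picture when only calls at the same place were compared, that is pairs within 10 bp, outside the ribosomal DNA and the outer 10000 bp of chromosomes. Of 55025 such calls dAT was lower by 0.32 or more at 643 (1.17%) and higher at 77 (0.14%). In coding sequence 104 of 42405 were lower and 66 higher, with a median ratio of 0.01. Upstream of genes 127 of 4845 were lower (2.62%) and 3 higher, with a median of -0.07. Within 200 bp downstream of stop codons 168 of 2599 were lower (6.46%) and 0 higher, with a median of -0.12. Where a downstream region was also the upstream region of a neighbour, 66 of 863 were lower (7.65%) and 0 higher. Most of the lower calls had low occupancy: 567 of the 643 were in the lowest quintile by the mean of both lists, which ended at 0.825. In the middle quintile (0.961 to 1.075) the medians were 0.01 in coding sequence, -0.07 upstream and -0.07 downstream.

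**Figure D5:**
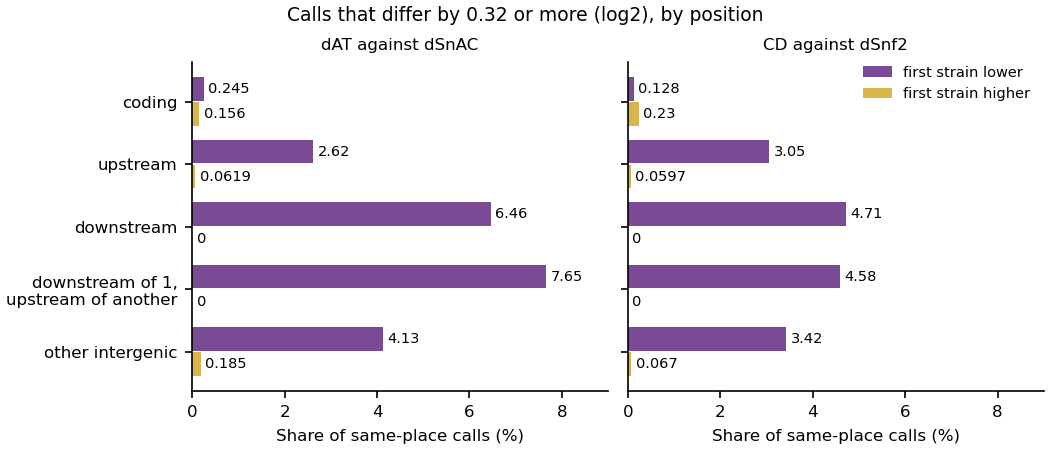
Share of same-place calls that differ by a log2 ratio of 0.32 or more (x axis, %), by position of the dyad (y axis), for dAT against dSnAC on the left and CD against dSnf2 on the right. Purple bars count calls lower in the first-named strain and yellow bars calls higher in it. On the left, 6.46% of downstream calls and 0.245% of coding calls are lower in dAT.

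The calls with the largest deficits lay near genes of various functions. The lowest ratio among calls of a mean of at least 0.25 was that of the call at -127 bp from the start codon of TDH3, with 120 reads (0.188) in dAT and 195 reads (0.379) in dSnAC, a log2 ratio of -0.73 with a counting half-width of 0.23. It had 0.494 in CD and 0.572 in dSnf2, and no WT call lay within 10 bp. A pair of calls inside PUT4, the proline permease gene, were also lower, with 0.477 against 0.794 at 348 bp and 0.257 against 0.457 at 643 bp. WT had 0.570 at the first, between the deletions, and no partner within 10 bp at the second. A call far upstream of SOK2, a transcription factor of filamentous growth, had 0.457 and 0.798, with 0.394 in WT, below both. One at -191 bp from IDH2, a subunit of isocitrate dehydrogenase, had 0.333 and 0.568, with 0.985 in WT. A call between DOT5, a thiol peroxidase gene, and the cell-wall gene TIR3 had 0.355 and 0.605, with 1.20 in WT. At lower calls with a WT partner within 10 bp, WT stood above both deletions in 469 of 498 (94.2%), against 45.5% of all such calls. Most lower calls were outside coding sequence, and there the shares were 94.5% (397 of 420) and 83.9% of all, while in coding sequence they were 92.3% (72 of 78) and 34.4%. The higher calls were mostly coding, led after SNF2 by SSB1, a ribosome-associated Hsp70 (0.46), and CDC39, the scaffold of the Ccr4-Not complex (0.43). Next came ISA2, of iron-sulfur cluster assembly (0.41), HAP3, of the CCAAT-binding activator (0.41), and RPL6B, a ribosomal protein (0.40). The SSB1 call was weak, at 0.306 and 0.195 with 195 and 100 reads and a counting half-width of 0.24. Whether the alignment divided reads of these genes among similar copies was not tested. At higher calls in coding sequence WT stood below both deletions in 54 of 59 (91.5%), against 53.5% of all coding calls.

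Regions downstream of genes separated the deletions more than promoters did. The promoter window was the longer one. From -200 to -1 bp, as long as the downstream window, 113 promoters were lower in dAT by 0.32 or more and 31 higher. Occupancy from 1 to 200 bp past the stop codon had a median of 0.509 in dAT, 0.560 in dSnAC, 0.620 in CD, 0.678 in dSnf2 and 0.732 in WT, and the median log2 ratio of dAT to dSnAC was -0.095 (-0.10 to -0.091). In dAT 404 genes were lower by 0.32 or more (6.86%) and 92 higher (1.56%), or 212 and 137 relative to the median gene. With all calls paired 293 were lower and 27 higher. The SD over genes was 0.19, and 0.14 among genes with all calls paired. The difference between genes that point towards each other (convergent, 1314 intergenic regions of 100 bp or more) had a median of -0.10, with 112 regions lower by 0.32 or more (8.52%) and 30 higher. It was -0.08 in tandem regions (2723, of which 39 lower and 4 higher) and -0.06 between divergent genes (1475, of which 1 lower and 1 higher). Convergent regions were shorter, with a median of 251.5 bp against 402 bp in tandem and 521 bp in divergent ones, and among regions of 300 bp or more the medians were -0.10, -0.09 and -0.06. The share of lower convergent regions was 10.2% below 300 bp and 5.74% from there on.

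The lowest downstream regions with all calls paired, named after their values were seen, were those of FIT3, a cell-wall mannoprotein of iron uptake (0.274 in dAT and 0.688 in dSnAC, -1.08), and IRC5, a helicase-like ATPase of the Snf2 family (0.321 and 0.749, -1.01). PAF1, of the Paf1 elongation complex (0.297 and 0.656, -0.93), and SAF1, an F-box protein (0.311 and 0.659, -0.88), end towards each other and share the region. DLT1 had 0.248 and 0.523 (-0.84), SRP68, of the signal recognition particle, 0.311 and 0.633 (-0.84), and GUT2, the mitochondrial glycerol-3-phosphate dehydrogenase, 0.277 and 0.550 (-0.78). In WT the region of SRP68 had 0.453, between the deletions, and those of the other genes 0.578 to 0.880, above dSnAC. In dSnf2 the shared region of PAF1 and SAF1 was as low as in dAT, at 0.260 and 0.253. On the other side stood NOP4, of ribosome biogenesis (0.393 and 0.189, 0.77), and QNS1, the NAD synthetase (0.567 and 0.362, 0.53).

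Gene bodies were nearly equal on the scale of the median call. Most calls were coding (42405 of 55025 same-place calls), so a median ratio near 0 there was largely set by the scaling. A change of level shared by all calls could not be seen. Over the first 1000 bp from the start codon the median log2 ratio was 0.01 with an SD over genes of 0.092, and 26 genes were higher in dAT by 0.32 or more (0.442%) and 28 lower (0.475%). A call without a partner reached 24 of the 26 and 18 of the 28, against 12.2% of all genes. LSO2, a small ribosome-associated protein gene, had 1.00 in dAT and 0.494 in dSnAC (0.89), through a dAT call of 752 reads at 145 bp. TIM12, of mitochondrial protein import, had 0.991 and 0.616 (0.61), KRI1, of ribosome assembly, 0.868 and 0.611 (0.45), PTH4 0.966 and 0.677 (0.46) and MIX17, of the mitochondrial intermembrane space, 1.02 and 0.727 (0.43). ATX1, the copper chaperone gene, had 0.452 and 0.780 (-0.67), HMF1 0.675 and 1.06 (-0.58), DIC1, the mitochondrial dicarboxylate carrier, 0.627 and 0.959 (-0.54) and RPS25A, a ribosomal protein gene with a near-identical copy, 0.403 and 0.618 (-0.51). With all calls paired, PUT4 had 0.261 and 0.390 (-0.44), with 0.342 in WT, the cell-wall gene CWP2 0.702 and 0.988 (-0.44) and APQ13 0.839 and 0.554 (0.52).

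The +1 nucleosome and the promoter gap were at the same place in most genes. The gap was taken as the widest distance between neighbouring dyads around the start codon, with its midpoint from -350 to 50 bp, and was found in both lists in 5750 genes. In 4910 of them the +1 calls were partners, and 90.6% of those lay within 5 bp of each other. The gap itself was elsewhere in 14.6%. The +1 call lay 20 bp or more downstream in dAT in 50 genes (1.02%) and upstream in 44 (0.896%). Of 4811 genes with both gap borders paired, the gap was wider in dAT by 20 bp or more in 119 (2.47%) and narrower in 100 (2.08%), with a median of 241 bp in dAT and 242 bp in dSnAC. The dyad SD of +1 was higher in dAT by 5 bp or more in 79 genes (1.61%) and lower in 84 (1.71%), but where both +1 calls had an occupancy of 0.5 or more the numbers were 5 and 2 of 4507.

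FLO11, a flocculin gene with a long regulated promoter (chromosome IX, 389572 to 393675), had the largest +1 displacement among the strong calls, with its dyad at 76 bp in dAT and at 149 bp in dSnAC, 73 bp apart, with strong calls in both (765 and 722 reads) and the next upstream call at -144 bp in both. The gap was thus 220 bp in dAT and 293 bp in dSnAC. Neither this gap in dSnAC nor the interval from 76 to 361 bp in dAT had room for a further call. WT had calls at both 81 and 255 bp. A displacement of 73 bp is the largest that the pairing allowed, so larger ones could not be counted. WSC2, a sensor of cell-wall stress, went the other way, with +1 at -35 bp in dAT and -97 bp in dSnAC and gaps of 236 and 176 bp. In WSC2 dSnAC had a further call of 404 reads at 66 bp that dAT lacked. TLD1 had -46 and 25 bp, JIP3 -64 and -15 bp, TDA8 84 and 132 bp, and ROM1, an activator of the Rho1 GTPase, 58 and 101 bp. ERG26 had -8 and -54 bp, CTI6, of the Rpd3L histone deacetylase, -159 and -200 bp, and EEB1, of ethyl ester synthesis, -37 and -77 bp. TAD1, a tRNA deaminase, had 99 and 62 bp. At CTI6, EEB1 and JIP3 the upstream borders of the gap were not partners. Their gaps were 149, 165 and 244 bp in dAT and 274, 270 and 176 bp in dSnAC. Whether 1 nucleosome was displaced at these genes thus cannot be told. Gaps that differed while +1 stayed within 6 bp included ZIP1, of the synaptonemal complex (273 bp in dAT and 214 bp in dSnAC), ALT2 (216 and 161 bp), MNT2, a mannosyltransferase (263 and 213 bp), MPC3, of the mitochondrial pyruvate carrier (186 and 232 bp), and GAB1, of glycolipid anchoring (233 and 275 bp).

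Positioning of +1 differed most at NIT1, with a dyad SD of 39.9 bp in dAT and 31.1 bp in dSnAC, MCO10 (32.5 and 26.4 bp) and FES1, an exchange factor of Hsp70 (28.8 and 23.1 bp). CAB1, pantothenate kinase, had 35.2 and 29.9 bp and CGR1, of ribosome assembly, 28.3 and 23.0 bp. The sharper calls in dAT were those of TDA8 (27.8 and 33.8 bp), MET28, an activator of sulfur metabolism (31.7 and 37.6 bp), and GIS1, a regulator of the response to nutrient limitation (34.7 and 39.3 bp). GLR1, glutathione reductase, had 24.3 and 28.8 bp and FKS1, glucan synthase, 32.2 and 36.8 bp. The +1 dyads of dAT and dSnAC stood apart at TDA8 (84 and 132 bp), MET28 (-33 and 9 bp) and GIS1 (-42 and -6 bp). They did so too at NIT1 (-82 and -110 bp) and CAB1 (-41 and -9 bp). At these genes the SDs compare calls at different positions. At the other genes named here the dyads lay within 10 bp of each other.

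Functional groups followed the genome. In 24 lists with 649 genes the promoter median was below 0 in all 24, from -0.12 to -0.01 around the -0.066 of all genes, and 9 members (1.39%) were lower and 4 (0.616%) higher by 0.32 or more, against 1.1% and 0.323% of all genes. Glycolytic and fermentative genes had the lowest median (-0.12, 17 of 20 below 0, 2 past the threshold, TDH3 and CDC19), and FBA1, aldolase, had -0.25. Chaperone genes had -0.11 (26 of 30 below 0, 0 past the threshold), with SIS1, an Hsp40, at 0.25 in dAT and 0.33 in dSnAC (-0.30) and BTN2 at -0.29. Methionine and sulfate genes had -0.11 (20 of 23), led by MET6, methionine synthase (-0.27). Gcn4-dependent amino acid genes had -0.10 (30 of 36), where LYS2, of lysine synthesis, was the 1 member past the threshold (-0.32). Ribosome biogenesis (-0.09, 35 of 40), respiration and the citric acid cycle (-0.09, 37 of 42, with ACO1 past the threshold and CYC1, cytochrome c, at -0.31), histone genes (-0.09, 11 of 11, led by HTZ1 at -0.22) and meiotic genes (-0.09, 27 of 33) came next. In the meiotic list IME1, the master activator of meiosis, was lower in dAT (0.544 and 0.727, -0.36) while its target IME2 was higher.

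Ribosomal protein genes were close to all genes. Those of the large subunit had a median of -0.07 (58 of 82 below 0), with RPL37A lower (0.113 and 0.192, -0.45) and RPL2A higher (0.298 and 0.217, 0.33). Those of the small subunit had -0.07 (44 of 57), with RPS25B past the threshold and RPS10A at -0.29. Both RPL37A and RPL2A belong to pairs of near-identical genes. Trehalose and stress genes had -0.07 (21 of 26, led by GRE3 at -0.23), proteasome genes -0.06 (30 of 34, PRE2 at -0.25), cell-wall genes of hypoxia -0.06 (18 of 25, with PAU7 past the threshold), mating genes -0.06 (19 of 27, with FAR1, which arrests the cell cycle, at 0.177 and 0.251, -0.34) and hexose transporters -0.06 (10 of 15, with HXT13 past the threshold). Glucose-repressed genes had -0.06 (15 of 22, ADR1 at -0.25), amino acid permeases -0.05 (19 of 24, ALP1 at -0.29), phosphate genes -0.05 (12 of 17, PHM8 at -0.31), the iron regulon -0.05 (17 of 23, FET5 at -0.29), cyclins -0.04 (19 of 25, with CLB2 the 1 member past the threshold) and galactose genes -0.01 (7 of 10), where the lowest was FUR4, which encodes the uracil permease and neighbours the GAL cluster (-0.24).

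Promoters of loci studied with SWI/SNF had a median of -0.06 (14 of 16 below 0), with 0 past the threshold. SUC2, invertase, had 0.432 in dAT and 0.492 in dSnAC (-0.16), PHO5, acid phosphatase, 1.04 and 1.09 (-0.07), PHO8, alkaline phosphatase, 0.819 and 0.809 (0.02), HO, the mating-type endonuclease, 0.951 and 0.924 (0.04), INO1, of inositol synthesis, 0.762 and 0.825 (-0.10), and SER3, of serine synthesis, 0.454 and 0.471 (-0.04). The counting half-widths of these 6 were 0.099 to 0.12, and SUC2 was the 1 promoter whose ratio was past its own (0.12), while INO1 was at it (0.10). Downstream of the 16 genes of that list the median was -0.14, with 16 of 16 below 0, and SIC1, an inhibitor of cyclin-dependent kinase (0.478 and 0.637, -0.35), and CHA1, serine deaminase (0.322 and 0.489, -0.48), past the threshold. CHA1 was also the 1 gene body of the list past it (0.773 and 0.577, 0.37), and calls without a partner reached both of its windows. The promoters of SWI/SNF subunits had -0.04 (10 of 12 below 0, ARP9 at -0.15) and those of the RSC remodeller -0.02 (10 of 17, RSC6 at 0.15). Downstream regions were below 0 in median in all 24 lists, from -0.18 (iron regulon) to -0.07 (cyclins), with 69 members (10.6%) lower and 8 (1.23%) higher by 0.32 or more, against 6.86% and 1.56% of all genes.

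The same distribution in space was seen between CD and dSnf2, lists that share no file with dAT and dSnAC. With CD in the place of dAT the median promoter ratio was -0.07 with an SD of 0.10, and 49 promoters were lower (0.832%) and 13 higher (0.221%). The median ratio downstream of stop codons was -0.10, and that of same-place calls was 0.02 in coding sequence, -0.07 upstream and -0.12 downstream. In reads, CD was deeper than dSnf2 (59747795 against 41221091) as dAT was deeper than dSnAC, while WT, the deepest list (64957209), had the highest promoter median. The part of depth in the result was not tested. Gene by gene the likeness was partial: across 5349 genes with all promoter calls paired in both comparisons, Pearson's r was 0.35 and Spearman's rho 0.37, as a description, since genes share libraries and neighbouring genes share regions. Of the lower promoters 3 were common to both (PMP1, RPS25B and YDR246W-A), 4.62% of the 65, where 0.832% of all genes were lower in CD, and 6.12% of the 49, where 1.1% of all genes were lower in dAT. These counts were not limited to genes with all calls paired, and a call without a partner between dAT and dSnAC reached all 3. Of the lower downstream regions 55 were common, 13.6% of 404, where 4.65% of all genes were lower in CD, and 20.1% of 274, where 6.86% were lower in dAT. The shares in common were thus above those of all genes, for lower promoters through those 3 genes alone. Most single promoters and downstream regions past the threshold were so in 1 of the comparisons. A lower occupancy outside genes was not particular to dAT and dSnAC in these files.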

How the data were processed

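The authors deposited 1 list of nucleosome calls per strain, made on merged replicates, per the labels. Bowtie and the build sacCer3 are named in the submitters' processing notes. The program that called nucleosomes, and how it was set, was not given in the sources used here. Occupancy as deposited is a coverage signal whose scaling is likewise not given, and other deposited values, positions and dyad SDs, are in bp per the file headers. In each list 100% of occupancies were whole multiples of the smallest within 0.01, which was taken as 1 read. Replicate 1 of dAT and replicate 2 of dSnAC are cited by no list and were not analysed here.

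Occupancies were divided by the median nuclear call outside the ribosomal DNA (chromosome XII, 451000 to 469000) and drawn as 147 bp footprints. Gene coordinates came from RefSeq (assembly R64, which corresponds to sacCer3), and the strand was read from the systematic name. Ratios are log2((dAT + 0.1) / (dSnAC + 0.1)), counted at 0.32, displacements and gaps at 20 bp and dyad SDs at 5 bp. Genes named were those with a standard name and the largest differences: 10 promoters and 6 bodies per direction with a mean of at least 0.25, 5 displacements and 5 dyad SDs per direction with both +1 calls at 0.5 or more, 4 gaps per direction with flanking calls at 0.5 or more, 4 unpaired calls of 0.75 or more per list, up to 3 members of each list, SNF2 and 6 loci studied with SWI/SNF. Further genes are marked as chosen after their values were seen, as were the comparison of same-place calls and the genes named from it. The strains, lists and rules were chosen with earlier results of these data known. Of listed members, 10 were not among the genes analysed (among them CTH2, PHO11 and MAL31). Python 3.11.15, numpy 2.4.6, pandas 2.3.3 and scipy 1.17.1 were used, and the window, pairing and displacement measures were tested on simulated data.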

Additional observations from a re-analysis of the deposited data

How the results depend on the processing

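No paired analysis was possible because each strain has 1 pooled list, and for the same reason no replicate could be left out. Over 12 settings and 17 results, 43 of 74 alternative values stayed near the reported one, and no median changed sign. Drawing calls from their deposited start to stop changed no count. The median promoter ratio was -0.0602 with the window of -200 to -1 bp, -0.05366 with a pseudocount of 0.25 and -0.05995 with scaling by the mean call, which gave -0.08887 downstream of genes and 0.01487 in gene bodies. Medians relative to the median gene are 0 by construction and are not given. The count of lower promoters was 113 with the shorter window, 24 with a pseudocount of 0.25 and 32 relative to the median gene, and that of higher promoters 31 with the shorter window. Relative to the median gene 212 downstream regions were lower. At a threshold of 0.58 there were 6 lower and 4 higher promoters, 5 and 5 bodies and 95 and 39 downstream regions. Without windows reached by an unpaired call, which was added with the data in view, there were 40 lower and 3 higher promoters, 10 and 2 bodies and 27 higher downstream regions. Pairs displaced by 20 bp or more were 5.526% of all, 4.943% without calls below 0.25 and 4.302% with partners within 50 bp. At 10 bp, 130 +1 calls lay downstream and 107 upstream, and 301 gaps were wider and 232 narrower. The dyad SD of +1 differed by 3 bp or more in 173 genes (higher) and 163 (lower), and by 5 bp or more in 14 and 6 without calls below 0.25, so most of those differences were at weak calls. The cause of the other movements was not tested. Depth limits single promoters: for named genes the counting half-width had a median of 0.12 and a maximum of 0.18, so ratios below that are within counting error.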
